A study of Caenorhabditis elegans with 2 samples.

Results

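Of the 30000 regions that the replicate 1 list of an SPTF-1 ChIP-seq experiment in Caenorhabditis elegans holds, 312 were high in both replicate lists and outside the authors' list of reproducible peaks. They were chosen by signal: each replicate list was cut to its 5000 regions of highest deposited signal, 326 replicate 1 regions overlapped a replicate 2 region by at least 1 bp, and 14 of these were left out because they overlapped 1 of the 18 optimal IDR peaks. IDR, the irreproducible discovery rate, compares the ranks of regions between replicate lists. The 4669 remaining replicate 1 regions of the top 5000 that neither shared a top region nor overlapped an optimal peak served for comparison. Signal, rank, q and presence in the pooled list were all made from the same reads, so for the 312 regions they are descriptions and carry no test.

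Both samples were whole worms at L1, the first stage after hatching, of strain OP196, males and females pooled, with an age given as unknown. The genotype was unc-119(ed3) III with the inserted transgene wgIs196, which supplies SPTF-1 tagged with eGFP, and the labels name the antibody by its target, sptf-1. The labels list no mutation of sptf-1 itself and do not state the copy number of the transgene. They number the samples as biological replicates 1 and 2 of a single group. Larvae were not divided by tissue, so a signal cannot be assigned to a cell type, and no control library was analysed here. Read depth is unknown because the lists hold no read counts.

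SPTF-1 belongs to the Sp family, proteins with zinc fingers near the carboxyl end that read GC-rich DNA. In mammals, Sp proteins bind the GC box, whose core is GGGCGG, mostly in promoters close to the start of transcription. A ChIP-seq list made for IDR is deliberately long and mixes bound sites with background, and a site bound in both cultures is one that both lists should rank high and place at about the same base.

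The sequences of 5 of the best ranked regions are shown because they differ in where the replicates placed their summits, the position that the peak caller gives as the peak, which is the middle of every region in these lists. They are RefSeq genome sequence of assembly WBcel235, which is ce11, and capitals run from the summit of either replicate to that of the other.
twk-23, chrX:13823342-13823636, plus strand: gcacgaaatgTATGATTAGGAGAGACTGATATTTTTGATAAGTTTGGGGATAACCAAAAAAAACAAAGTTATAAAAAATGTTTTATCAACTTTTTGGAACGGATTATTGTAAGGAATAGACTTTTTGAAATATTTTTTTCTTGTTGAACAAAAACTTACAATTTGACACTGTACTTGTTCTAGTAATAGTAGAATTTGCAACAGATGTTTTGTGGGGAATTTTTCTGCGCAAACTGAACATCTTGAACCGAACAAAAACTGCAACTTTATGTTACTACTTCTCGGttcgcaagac
cpg-23, chrV:19143268-19143368, plus strand: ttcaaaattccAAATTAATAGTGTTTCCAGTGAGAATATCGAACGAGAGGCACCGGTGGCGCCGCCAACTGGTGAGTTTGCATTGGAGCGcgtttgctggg
rpl-3, chrIII:3868622-3868778, plus strand: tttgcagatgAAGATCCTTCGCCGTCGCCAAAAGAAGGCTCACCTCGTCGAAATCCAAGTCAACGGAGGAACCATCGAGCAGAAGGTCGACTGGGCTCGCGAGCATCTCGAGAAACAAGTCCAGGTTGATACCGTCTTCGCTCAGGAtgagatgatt
R10E8.1, chrV:18250138-18250237, plus strand: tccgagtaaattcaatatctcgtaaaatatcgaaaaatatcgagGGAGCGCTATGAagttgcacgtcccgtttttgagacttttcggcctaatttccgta
nas-8, chrIV:7116966-7117065, plus strand: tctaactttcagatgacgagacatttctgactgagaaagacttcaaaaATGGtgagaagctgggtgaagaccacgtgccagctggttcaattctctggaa
Each window was cut to hold both summits, so the share of it in capitals also depends on the cut. At twk-23 the capitals span nearly the whole window, with summits 274 bp apart. At R10E8.1 and nas-8 they cover a few bases, with summits 11 and 3 bp apart.

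The region near twk-23 (WBGene00006676), which encodes a potassium channel subunit of the TWK family, had a signal of 21.7 in replicate 1 and 18.2 in replicate 2. It ranked 87 and 81, and its q was 0.0983 in replicate 1 and 0.0683 in replicate 2. The regions overlapped by only 69 bp, and the region was absent from the pooled list, so at the best ranked of the 312 the replicates put their summits at different places. The region near ubql-1, which encodes ubiquilin, a protein that carries ubiquitinated proteins to the proteasome, had signals of 19.8 and 15.5 with summits 208 bp apart, and it too was absent from the pooled list. The region in coding sequence of T26E3.6 had signals of 18.2 and 17.2 with summits 18 bp apart and was in the pooled list at 34.5, the highest pooled signal of the 312.

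Among the next regions, that in an intron of cpg-23, a gene for a chondroitin proteoglycan, had signals of 17.8 and 17.1 in replicates 1 and 2. The region 1528 bp upstream of the chemoreceptor gene sra-34 had signals of 18.2 and 14.8. The region 4283 bp upstream of frpr-7, which encodes a receptor of the FMRFamide peptide receptor family, had signals of 17.3 and 16.2. These 3 were all in the pooled list. In coding sequence of rpl-3, which encodes a protein of the large ribosomal subunit, the signals were 20.6 and 14.3. In the intron of R10E8.1 they were 16.9 and 15.2. In coding sequence of nas-8, an astacin-type metalloprotease gene, they were 16.8 and 14.6. The replicate 1 value was the higher in each of these regions, as it was across the lists, whose medians were 9.78 in replicate 1 and 8.13 in replicate 2.

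**Figure D1:**
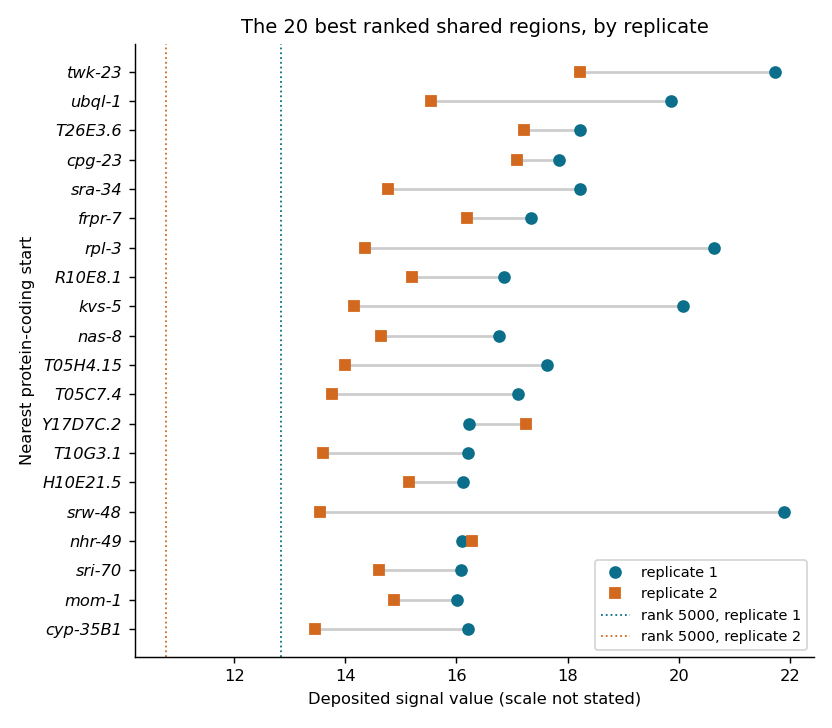
Deposited signal value (horizontal axis, scale not stated) of the 20 regions with the smallest larger rank, named by the nearest protein-coding start. Circles are replicate 1, squares are replicate 2, and dotted lines mark the signal at rank 5000 of each replicate, 12.8 and 10.8. Replicate 1 values run from 16.0 to 21.9 and replicate 2 values from 13.4 to 18.2, and only at Y17D7C.2 and nhr-49 is replicate 2 the higher.

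The other regions of the first 20 lay near kvs-5, T05H4.15, T05C7.4, Y17D7C.2, T10G3.1, H10E21.5, srw-48, nhr-49, sri-70, mom-1 and cyp-35B1. kvs-5 encodes a voltage-gated potassium channel subunit, and its region had signals of 20.1 and 14.2. srw-48 and sri-70 encode chemoreceptors of the serpentine families; the srw-48 region had signals of 21.9 and 13.5, with ranks 83 and 1245, and the sri-70 region had 16.1 and 14.6. nhr-49, a nuclear hormone receptor gene of fat metabolism, held a region in an intron with signals of 16.1 and 16.3. mom-1 encodes the Porcupine protein needed for Wnt secretion, and its intronic region had signals of 16.0 and 14.9 with summits 23 bp apart. cyp-35B1 encodes a cytochrome P450, and its intronic region had 16.2 and 13.4 with summits 250 bp apart. Only 3 of the 312 regions ranked within the first 500 of both lists, 11 within the first 1000 and 93 within the first 2500.

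Signals ran from 12.8 to 23.5 with a median of 14.6 in replicate 1, and from 10.8 to 18.9 with a median of 12.4 in replicate 2. The other top regions had a replicate 1 median of 14.5 and reached 27.3, so the 312 were not the upper end of the replicate 1 top 5000. The replicate 1 rank of the 312 had a median of 2448.5, in the middle of the ranks from 1 to 5000. A q under 0.05 was listed for 1 of the 312 regions in replicate 1 and 0 in replicate 2, where the full lists had 0.133% and 0.0967% of regions under 0.05. That region, on chromosome V at 18705898 to 18706233 near Y17D7C.1, had a q of 0.0380 and a signal of 23.5 in replicate 1, and a q of 0.354 and a signal of 13.3 in replicate 2. The median q of the 312 was 0.611 in replicate 1 and 0.429 in replicate 2.

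Across the 312 regions the signals of the replicates had a Spearman's rho of 0.0311, and Pearson's r of the log10 signals was 0.0152. Both are descriptions over regions that share 2 libraries, and the cutoffs in each list narrow their range. Within the 312, the order of signals in replicate 1 gave almost no hint of the order in replicate 2. The pooled list held 77 of the 312, 24.7% (95% exact interval 19.996 to 29.9%), beside 1.63% of the other top regions. In the 1270 of these that overlapped only replicate 2 regions outside its top 5000, the share was 4.65%. The whole replicate 1 top 5000, which includes the 312, had 3.44%. Since the pooled list was made from the reads of both replicates, the share of the 312 is fixed in part by the choice. Regions of the 312 in the pooled list had median signals of 16.0 and 13.3 in replicates 1 and 2, and those outside it had 14.2 and 12.1.

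**Figure D2:**
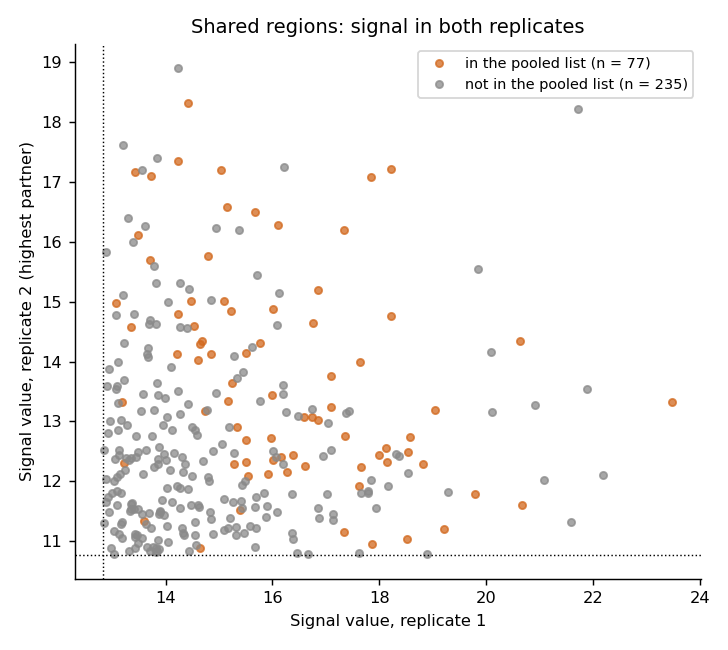
Signal in replicate 1 (horizontal axis) against signal of the overlapping region in replicate 2 (vertical axis) for the 312 regions, each a point, coloured by presence in the pooled list. Dotted lines mark the signal at rank 5000 in each replicate. The cloud has no slope, with a Spearman's rho of 0.0311, and the 77 regions in the pooled list lie mostly toward the upper right.

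Sharing was then set against rank, to ask whether the top regions of the replicates met more often than regions of lower rank. Of the replicate 1 top 5000, 326 overlapped a replicate 2 top 5000 region, 6.52% (95% exact interval 5.85 to 7.24%). The next 5 blocks of 5000 replicate 2 ranks were overlapped by 291, 272, 274, 251 and 262 of the same regions, or 5.82, 5.44, 5.48, 5.02 and 5.24%. Taken from the other side, 327 regions of the replicate 2 top 5000 (6.54%, 5.87 to 7.26%) overlapped a replicate 1 top region, and 277, 292, 239, 237 and 240 overlapped a region in the blocks below, in order of rank. The highest block was the most often met in both directions, and no test was made of the difference. These counts keep regions that overlap optimal IDR peaks, among them the 14 of the 326 left out of the 312. No share was computed for the 312 alone, so the higher first block is not shown to be a trait of them. For replicate 1 top regions, the interval of the first block overlapped those of 4 blocks, such as 5.19 to 6.51% at ranks 5001 to 10000, but not that of ranks 20001 to 25000, 4.43 to 5.66%. For replicate 2 top regions, it overlapped those of the next 2 blocks but not those of the last 3, which ran from 4.17 to 5.43%. Both replicate lists were derived from 1 further file, taken here to be the control, and these counts do not account for it.

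**Figure D3:**
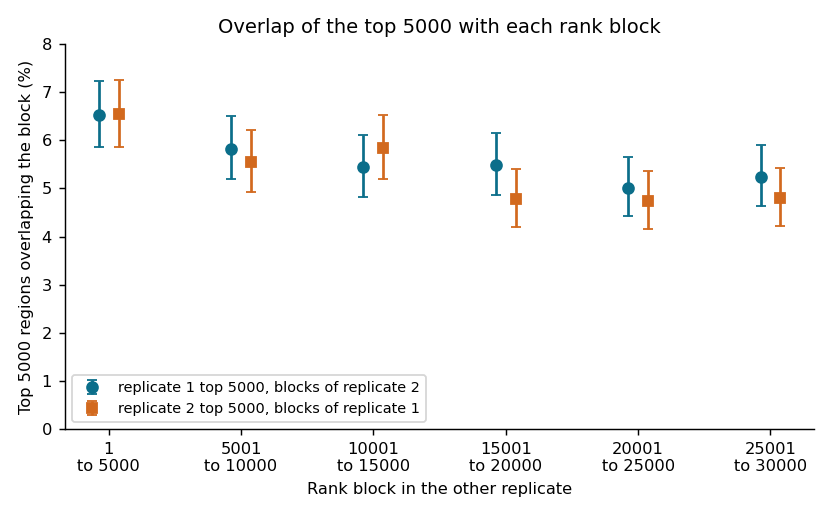
Share of the top 5000 regions of a replicate (vertical axis, %) that overlap each block of 5000 ranks in the other replicate (horizontal axis, high signal at the left). Circles are replicate 1 top regions, squares are replicate 2 top regions, and bars are exact 95% intervals for counting error. The share is 6.52% in the first block for replicate 1 and between 5.02 and 5.82% in the others. Regions that overlap optimal IDR peaks are included.

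Distances between summits did not enter the rule, although overlap by 1 bp limits them to 342 bp. In 67 of the 312 regions the summits lay under 25 bp apart, 21.5% (95% exact interval 17.0 to 26.5%). The share was 15.7% (13.8 to 17.9%) in the 1270 other top regions that met a lower replicate 2 rank, an interval that overlaps that of the 312. It was 14.4% (12.5 to 16.4%) in the 1285 pairs below rank 5000 in replicate 1 only. In the 5585 pairs below rank 5000 in both lists it was 13.4% (12.5 to 14.3%). From 25 to 49 bp the order turned, with 6.73% (4.21 to 10.1%) of the 312 and 11.6% (9.87 to 13.5%) of the other top regions. Counted under 50 bp the shares were 28.2% in the 312 and 27.3% in the other top regions, and under 100 bp they were 48.1 and 45.0%. The median distance was 107 bp (90 to 123 bp) in the 312 and 115 bp (107 to 122 bp) in the other top regions. No test was made of these differences, and the comparison of summits was chosen after the data were seen.

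Rank and the pooled list, which come from the same reads as the rule, are set beside the distances only as a description. Of the 93 regions within the first 2500 of both lists, 26 had summits under 25 bp apart, 28.0% (19.1 to 38.2%), and of the 219 others 41 did, 18.7% (13.8 to 24.5%), with intervals that overlap. The pooled list held 38 of the 67 regions with summits under 25 bp apart (56.7%), 25 of the 83 at 25 to 99 bp (30.1%) and 14 of the 162 at 100 bp or more (8.64%). That list was made from the reads of both replicates together, and why its share fell with distance was not tested. The median replicate 1 signal was 14.8, 14.6 and 14.4 in these sets, and the median replicate 2 signal was 12.7, 12.2 and 12.5, so signal followed the order of the distances in replicate 1 only, by small steps.

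**Figure D4:**
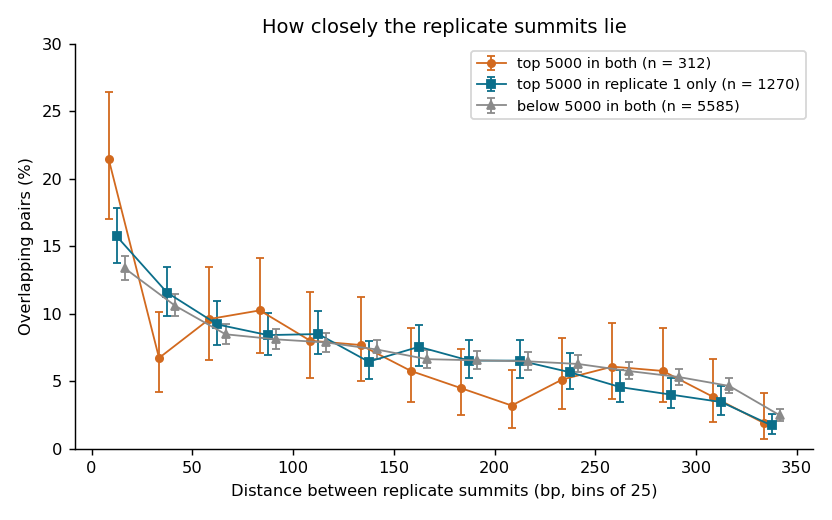
Share of overlapping pairs (vertical axis, %) by the distance between the replicate summits (horizontal axis, bp, bins of 25), with exact 95% intervals for counting error. Circles are the 312 regions, squares the 1270 other top regions paired with a lower replicate 2 rank, and triangles the 5585 pairs below rank 5000 in both. In the first bin the shares are 21.5, 15.7 and 13.4%, and there the intervals of the 312 and of the 1270 overlap.

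The 10 regions with the smallest distance lay near nas-8, Y44E3A.1, Y62E10A.3, gcy-4, ZK896.5, nas-37, F59A6.10, fbxb-31, nhr-178 and lact-8, all with summits at most 3 bp apart. gcy-4 encodes a receptor-type guanylate cyclase, and its intronic region had signals of 17.99 in replicate 1 and 12.4 in replicate 2. nas-37 encodes an astacin metalloprotease that acts in moulting, and its region 1774 bp upstream had 14.5 and 12.1. The region of zero distance lay in an intron of edc-4, whose protein acts in mRNA decapping, at 19.0 and 13.2. The nhr-178 region, 25 bp upstream of that nuclear hormone receptor gene, had 14.6 and 10.9. Of the 10, the pooled list held 7 and lacked those near nas-37, fbxb-31 and lact-8.

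Summits of the 312 regions lay at 84 places within 500 bp of a protein-coding start, 26.9% (95% exact interval 22.1 to 32.2%), and 23.8% (22.5 to 25%) of the other top regions did. The median distance to the nearest protein-coding start was 1143.5 bp (1026 to 1407 bp) in the 312 and 1253 bp (1196 to 1311 bp) in the other top regions. Upstream and downstream counts were nearly equal, with 41 summits within 500 bp upstream (13.1%) and 43 downstream (13.8%). In the other top regions these shares were 11.3 and 12.5%, and the intervals overlapped. Coding sequence held 82 summits (26.3%), introns of protein-coding genes 96 (30.8%) and intergenic sequence 109 (34.9%). In the other top regions these shares were 26.7, 33.4 and 31.2%, and the intervals overlapped in each case. The 5′ UTR held 2 summits (0.641%) and the 3′ UTR 13 (4.17%), beside 1.37 and 3.26% of the other top regions, again with overlapping intervals. Where the sequence was coding it was richer in GC, with a median of 39.3% in the 200 bp around the summit against 34.3% in intergenic and 34.6% in intronic regions of the 312. GC was not split by feature in the other top regions, so this does not set the 312 apart.

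The median GC content within 100 bp of the summit was 36.8% (35.8 to 37.8%) in the 312, 35.3% (35.3 to 35.8%) in the other top regions and 36.3% in the full replicate 2 list. Bases that the genome sequence gives in lower case, as in masked repeats, made a median of 25% (22.6 to 28.0%) of the 312 and 30.1% (29.2 to 30.7%) of the other top regions. The full replicate 2 list had 28.3%. Lower case covered at least 50% of the region at 54 of the 312, 17.3% (13.3 to 22.0%), and at 21.1% (19.9 to 22.3%) of the other top regions. Of the other top regions, the 1270 that met a lower replicate 2 rank had a median of 28.9% (27.4 to 30.4%) and a share of 19.7% (17.5 to 22.0%). Both of these intervals overlapped those of the 312, so lower repeat content was not shown to be particular to them. Words of 36 bases that occur at 2 or more places in the genome were found in 27 of the 312 regions, 8.65%, and in 8.25% of the other top regions. By chromosome, 45 lay on I, 48 on II, 44 on III, 62 on IV, 56 on V and 57 on X, each with an interval that held the share of the other top regions.

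**Figure D5:**
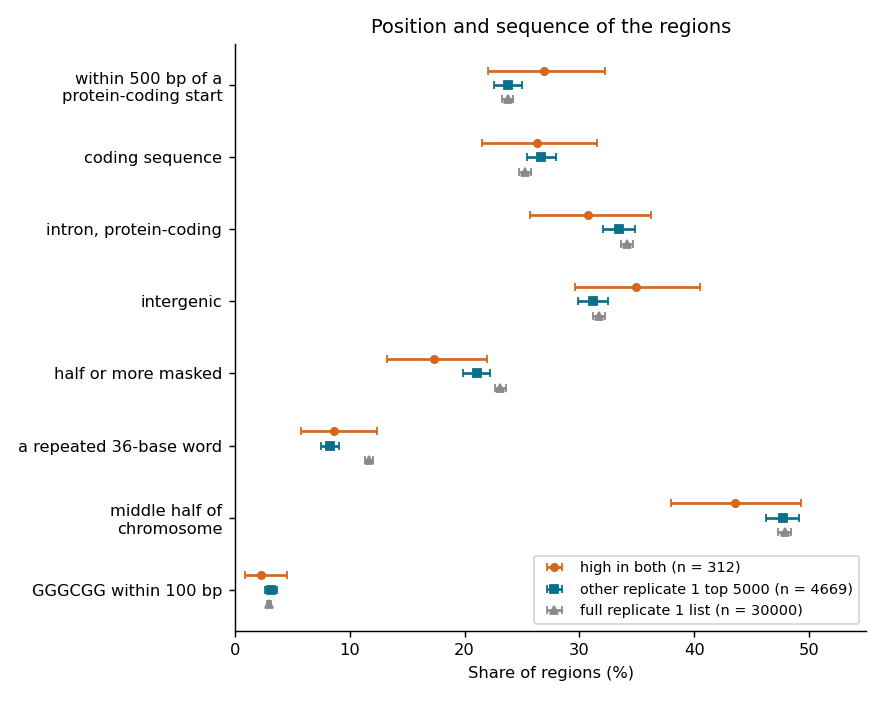
Share of regions (horizontal axis, %) with each feature, for the 312 regions (circles, top of each group), the other replicate 1 top 5000 (squares) and the full replicate 1 list (triangles), with exact 95% intervals for counting error. Masked means lower case in the genome sequence. The intervals of the 312 overlap those of the other top regions in all 8 features, with 26.9 and 23.8% for protein-coding starts.

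GGGCGG, searched on both strands, lay within 50 bp of 1 of the 312 replicate 1 summits, 0.321% (95% exact interval 0.0081 to 1.77%). It lay at 72 of the other top regions, 1.54% (1.21 to 1.94%), and at 1.48% of the full replicate 1 list. Within 100 bp the counts were 7 of the 312, 2.24% (0.907 to 4.57%), and 3.13% of the other top regions. Choosing replicate 2 regions by the same rule gave 314 regions, of which 1.59% had the word within 50 bp of the replicate 2 summit, inside the interval of the 312. The related word GGGTGTG, searched within 50 bp in the same way, was found at 1 of the 312, 0.321%. It was found at 0.386% of the other top regions and 0.46% of the full replicate 1 list. The 7 regions with GGGCGG lay near H10E21.5, fbxb-97, tent-5, ZK1128.7, T23E7.2, rga-9 and sqst-5. A pair of them are shown on the plus strand with the motif or its complement in capitals: rga-9, the match within 50 bp, in an intron of a gene for a protein of the RhoGAP family, and H10E21.5, the best ranked.
rga-9, chrII:15270333-15270398, plus strand: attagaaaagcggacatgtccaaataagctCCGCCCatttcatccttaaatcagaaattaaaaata
H10E21.5, chrIII:22517-22582, plus strand: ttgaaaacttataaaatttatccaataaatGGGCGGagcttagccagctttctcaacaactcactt
The rga-9 region had signals of 13.5 in replicate 1 and 11.1 in replicate 2, near the lower limit of both, and the H10E21.5 region had 16.1 and 15.1. A match of these letters is a description and does not show binding.

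A total of 23 lists of genes were searched for starts within 500 bp of a summit. No start of cytosolic ribosomal protein, translation factor, histone, homeobox ceh, Sp/KLF, proteasome, heat shock, neuropeptide, F-box, BATH, rRNA or lincRNA genes lay that close to any of the 312, where a count of 0 has an exact interval up to 1.18%. In the other top regions these lists had shares between 0 and 0.193% each, so counts of 0 among 312 do not set the 312 apart. Nuclear hormone receptors had 2, nhr-49 and nhr-178, which is 0.641% of the 312, beside 0.343% of the other top regions. vha-13, which encodes a subunit of the vacuolar ATPase, had a summit 1 bp downstream of its start, with signals of 18.3 in replicate 1 and 12.5 in replicate 2 and summits 237 bp apart. The collagen gene col-54 had a region 391 bp upstream at 14.3 and 11.2. Each is 1 of the 312, 0.321%, and the other top regions had 0 for the vacuolar ATPase and 0.129% for collagens. Chemoreceptor genes were within 500 bp of 4 of the 312, 1.28%, and of 1.69% of the other top regions. Starts of snoRNA genes lay near 2 of the 312 (Y110A2AL.20 and Y71F9AL.24), 0.641%, and near 0.578% of the other top regions. The snRNA gene F32B5.9, the miRNA gene cel-mir-5546 and the C-type lectin gene clec-187 lay near 1 each, 0.321%, where the other top regions had 0.0428, 0.214 and 0.321% for these lists. The replicate 1 summit of the F32B5.9 region lies in coding sequence of cpz-1, which encodes a cathepsin Z-like protease. The region had signals of 16.4 in replicate 1 and 12.4 in replicate 2. Pseudogenes were within 500 bp of 7 of the 312, 2.24%, and of 1.61% of the other top regions. Genes for piRNAs, which silence foreign sequence in the germ line and cluster on chromosome IV, were that close to 22 of the 312, 7.05%, and to 5.57% of the other top regions.

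tRNA genes, which RNA polymerase III transcribes from promoters inside the gene, had starts within 500 bp of 5 of the 312 summits, 1.60% (95% exact interval 0.522 to 3.70%). The share was 0.386% (0.229 to 0.609%) in the other top regions and 0.567% in the full replicate 1 list. The intervals overlap, and this list was among 23. The genes were K01A11.t1, Y73B6BL.t1, K12H4.t1, Y65A5A.t2 and F49E7.t2, for lysine, valine, proline, alanine and arginine tRNAs. The replicate 1 region held the whole gene at Y73B6BL.t1 and K12H4.t1, and the replicate 2 region held it at Y65A5A.t2 and F49E7.t2. Of the 312 replicate 1 regions, 2 overlapped a tRNA gene, 0.641% (0.0777 to 2.30%). The share was 0.107% (0.0348 to 0.250%) in the other top regions and 0.263% in the full replicate 1 list, and the first 2 intervals overlap. The 2 genes held in replicate 1 are shown, on their own strand and with the gene in capitals, because they lie inside regions of the 312.
Y73B6BL.t1, chrIV:6481131-6481263, plus strand: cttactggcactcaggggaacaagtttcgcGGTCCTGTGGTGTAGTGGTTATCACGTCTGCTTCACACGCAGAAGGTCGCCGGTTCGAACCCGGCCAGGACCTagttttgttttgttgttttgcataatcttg
K12H4.t1, chrIII:8069375-8069506, plus strand: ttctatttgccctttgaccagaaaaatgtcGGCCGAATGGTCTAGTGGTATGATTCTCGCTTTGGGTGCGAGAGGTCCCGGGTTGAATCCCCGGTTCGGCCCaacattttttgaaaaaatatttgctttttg
The Y73B6BL.t1 region, near tyr-6, had signals of 16.5 in replicate 1 and 13.1 in replicate 2, with a replicate 1 summit 24 bp from the start of the tRNA gene. The replicate 1 summit of the K12H4.t1 region lies in coding sequence of pros-1, the Prospero homeobox gene. The region had signals of 19.3 and 11.8 with summits 240 bp apart. GGTTCGA, a word of the internal promoter that 64.5% of the 612 annotated tRNA genes hold on the gene strand, was found on either strand in 6 of the 312 regions, 1.92%, and in 1.93% of the other top regions. The counts of tRNA overlap and of GGTTCGA were chosen after the data were seen.

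Of the 312, 32 lay within 10000 bp of another and 8 within 2000 bp. No such counts are given for the other top regions, so these do not set the 312 apart. The densest group lay on chromosome V from 18705898 to 18724504, where 18607 bp held 7 of the 312, 2 of the 18 optimal IDR peaks and 9 of the 193 pooled regions. Listed regions numbered 23 in replicate 1, 16 of them in its top 5000, and 20 in replicate 2, 12 of them in its top 5000. The signals of the 7 ran from 12.8 to 23.5 in replicate 1 and from 11.3 to 17.2 in replicate 2, and the lowest replicate 1 signal fell just inside the limit. Of these 7 regions, 6 were at least 50% lower case and 4 held a 36-base word that occurs elsewhere in the genome. The part of repeated sequence in these signals was not tested. The region near Y17D7C.6 was entirely lower case, with 66.8% of its words repeated, the only one of the 312 above 50%, and had signals of 13.3 in replicate 1 and 16.4 in replicate 2. The 2 regions near Y17D7C.1 had starts 199 bp apart, overlapped each other and met the same replicate 2 region. The 2 near Y62E10A.3 likewise overlapped and met 1 replicate 2 region. Counting only the highest ranked partner of each, the 312 thus met 310 distinct replicate 2 regions, and 3 of the 312 had 2 partners.

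The last regions inside were those near ZK1225.2, at ranks 4990 in replicate 1 and 2157 in replicate 2, and near Y17D7C.2, at 4995 and 3894. Just outside were those near gei-17, at 1371 and 5009, and near M04G7.2, at 5012 and 1811. The signal changed little across the limit: 12.8361 and 12.8357 at ranks 5000 and 5001 of replicate 1, and 10.7709 and 10.7703 of replicate 2. Regions on either side of the limit thus had nearly equal signal.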

How the data were processed

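Region lists on ce11 from 2 samples of 1 group were used, with ce10 lists for counts only. Each replicate list came, per the records the authors deposited, from that replicate's alignment and 1 further file, which both share and which the records do not describe. The signal value is a score from the authors' peak caller, with no scale given, and the deposited −log10 q was converted to q. The aligner and caller are not given in the sources used here. Positions were compared with WBcel235 and Ensembl release 115 using pandas 2.3.3, numpy 2.4.6 and scipy 1.17.1 under Python 3.11.15. Regions said to lie in coding sequence, a UTR, an intron or intergenic sequence were placed by the replicate 1 summit. How the genome was masked is not stated. Figures were drawn with matplotlib 3.10.9. Scripts were tested on simulated regions. Intervals are exact at 95% (Clopper-Pearson for shares) and cover counting error only, because regions are not replicates. With 1 group of 2 samples no p-value was computed. Regions were named by the 20 smallest larger ranks, a q under 0.05, a start within 500 bp from a gene list other than chemoreceptors, C-type lectins, F-box, BATH, piRNA and pseudogenes, which were only counted, the 10 closest summits, and the regions next to the limit. Outside this rule, clec-187, regions with GGGCGG and neighbouring regions were named after their values were seen. The regions and lists were chosen with earlier results of these data known.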

Additional observations from a re-analysis of the deposited data

How the results depend on the processing

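Of 80 alternatives, 56 kept values within their interval or counts within 1.5 times, and 24 did not. The number of regions was 93 with the top 2500, 1121 with the top 10000, 154 with summits within 100 bp and 77 in the pooled list, and 5000 with either replicate left out, by construction. The share near a start was 12.2% within 200 bp, 43.3% within 1000 bp and 38.8% with all starts. GC was 35.6% with 50 bp either side. Repeated sequence was 13.0% in the 77 of the 312 in the pooled list, 94.9% with any base and 0.321% by repeated words. GGGCGG was 0% with the top 2500, with summits within 100 bp and in those 77 regions. It was 2.24% with 100 bp, and 1.48 to 1.88% with either replicate left out. Pooled overlap was 54.8% (top 2500), 10.3% (top 10000), 34.9% (reciprocal 50%) and 40.9% (summits within 100 bp), and 2.32 to 3.44% with either replicate left out. Apart from changes set by construction, the cause was not tested. On ce10 there were 321 regions, and 293 of the 312 matched by chromosome and signal within 0.01. No paired analysis was possible because the samples form a single group. Unknown depth and the undescribed shared file limit every share.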
